A study of Homo sapiens and Mus musculus with 21 samples.

Results

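MYC, CCND1, CD44 and SOX4 are 4 growth-related target genes of Wnt signalling, and their transcript levels were followed through 6 groups of human colon carcinoma xenografts. The genes were chosen by name from a table of 58336 human gene identifiers, of which 22981 were tested. All 4 reached at least 1 TPM (a length-scaled transcript abundance that sums to the same total in every library) in each of the 18 libraries. The tumours grew from SW620 or SW480 cells injected into the caecum wall of NSG mice, an immunodeficient strain, and whole caecum tissue was taken at day 28. SW620 and SW480 are established colon carcinoma lines from a lymph node metastasis and the primary tumour of the same patient, and both carry truncated APC. In each line, cells transduced with lentivirus for dnLEF1, a dominant negative form of LEF1, were set against mock-transduced cells (Mock). SW620 cells were also transfected with a CRISPR construct against LRP6, selected in puromycin and sorted for reduced LRP6 protein (LRP6KO), and were set against mock CRISPR/Cas9 transfected and sorted cells (Cas9). The labels do not say whether the edited cells were a clone, and each line is 1 cell line, so the line and its handling cannot be told apart. Each group held 3 libraries. The design speaks of triplicates without saying that every library came from its own mouse, so the p-values measure the spread between these samples.

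In Wnt signalling, a ligand bound to Frizzled and the co-receptor LRP6 stops the destruction complex, which contains APC and AXIN, from degrading β-catenin, and β-catenin then joins LEF1 and the TCF factors on target genes. A dominant negative LEF1 keeps the DNA-binding part but cannot recruit β-catenin. MYC encodes a transcription factor that dimerises with MAX and drives ribosome biogenesis and growth, SOX4 encodes an HMG-box factor of progenitor cells that can act with β-catenin, CCND1 encodes cyclin D1, which activates CDK4 and CDK6 to release cells into S phase, and CD44 encodes a hyaluronan receptor of intestinal crypts and carcinoma cells. Because APC lies downstream of the receptor, the pathway in APC-mutant colon cells is active to a large degree without ligand.

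Of the 4 genes, CD44 and SOX4 had an entry in the RefSeq promoter table for GRCh38.p14, and these promoters are shown because both genes differed between the lines. Each run is read 5′ to 3′ on the plus strand, and capitals mark the 50 bases from the transcript start of that table. The CD44 window was chr11:35138921-35139220 with 63.3% G and C, and the SOX4 window was chr6:21593501-21593800 with 49.3%. Both were searched on both strands for the TCF/LEF words CTTTGAA and CTTTGAT and for the E-box CACGTG read by MYC and MAX. Neither window held any of these letters, while 6.9% and 7.3% of 35116 promoter windows of the same length held the TCF/LEF words and the E-box. Both windows began past the gene starts given below for CD44 and SOX4, so no base before those starts was searched.
CD44: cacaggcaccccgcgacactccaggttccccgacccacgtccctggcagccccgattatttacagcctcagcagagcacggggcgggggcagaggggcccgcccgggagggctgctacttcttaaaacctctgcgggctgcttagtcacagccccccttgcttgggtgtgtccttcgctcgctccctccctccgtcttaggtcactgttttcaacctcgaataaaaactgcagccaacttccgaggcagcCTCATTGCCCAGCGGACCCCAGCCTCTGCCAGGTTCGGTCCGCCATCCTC
SOX4: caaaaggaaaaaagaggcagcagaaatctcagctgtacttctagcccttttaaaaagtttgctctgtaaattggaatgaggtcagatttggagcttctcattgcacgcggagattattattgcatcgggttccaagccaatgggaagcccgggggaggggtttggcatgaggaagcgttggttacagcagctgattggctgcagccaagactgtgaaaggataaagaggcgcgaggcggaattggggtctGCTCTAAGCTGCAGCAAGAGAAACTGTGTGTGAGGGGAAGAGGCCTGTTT

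Across the libraries, 24665 to 34709 human genes were above 0, with SW480 Mock replicate 3 lowest and SW480 Mock replicate 2 highest. TPM keeps no depth, so no counting interval is given. Summed epithelial markers (10 genes such as EPCAM and KRT8) ran between 8740 and 10786 TPM in SW620 dnLEF1 and 15153 and 17070.3 TPM in SW620 Mock. The sums ran between 11034 and 14335 TPM in Cas9 and 12026 and 13045 TPM in LRP6KO, also below SW620 Mock. They ran between 13321 and 18122 TPM in SW480 dnLEF1 and 17337 and 21249.6 TPM in SW480 Mock. LRP6 itself averaged 19.1 ± 1.86 TPM in the libraries labelled LRP6KO and 15.4 ± 3.89 TPM in Cas9 libraries (SD, n = 3 each). The sort was made on protein, and a transcript level does not check it.

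The levels of CCND1, CD44 and SOX4 differed widely between the cell lines, and no call was made for any of the 4 genes within a line. A gene is said to be called where the adjusted p of limma over all genes tested was under 0.05, and differences are of log2(TPM + 1), which understates the change of low genes. Between the Mock tumours of SW620 and SW480, 3 of the 4 genes were called, where 23.9% of all genes were called. SOX4 was the 1 member called higher in SW620, where 10.9% of all genes were called higher, and CCND1 and CD44 were called lower, where 12.9% were. Between the dnLEF1 tumours of the lines, a comparison added after the values were seen, all 4 were called, where 31.5% of all genes were. There 6 of 7 tested epithelial markers were called lower in SW620, as CCND1 and CD44 were, where 4940 of 22981 genes were called lower. Between the Mock tumours, 1 of these 7 markers was called higher in SW620 and 1 lower. The part of these markers in the differences of the 4 genes was not tested. The share of all genes called within a line was 2.23% for dnLEF1 against Mock in SW480, 0.165% for dnLEF1 against Mock in SW620, 0% for LRP6KO against Cas9 and 0% for Cas9 against Mock. The difference between the dnLEF1 changes of SW620 and SW480, tested directly, was called for none of the 4 and for 0.718% of all genes. For LRP6KO against Cas9, limma gave 766 genes with an unadjusted p under 0.05, 10 called genes with only those libraries in the fit and 1 with array weights. For Cas9 against Mock these numbers were 1154, 8 and 101.

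**Figure D1:**
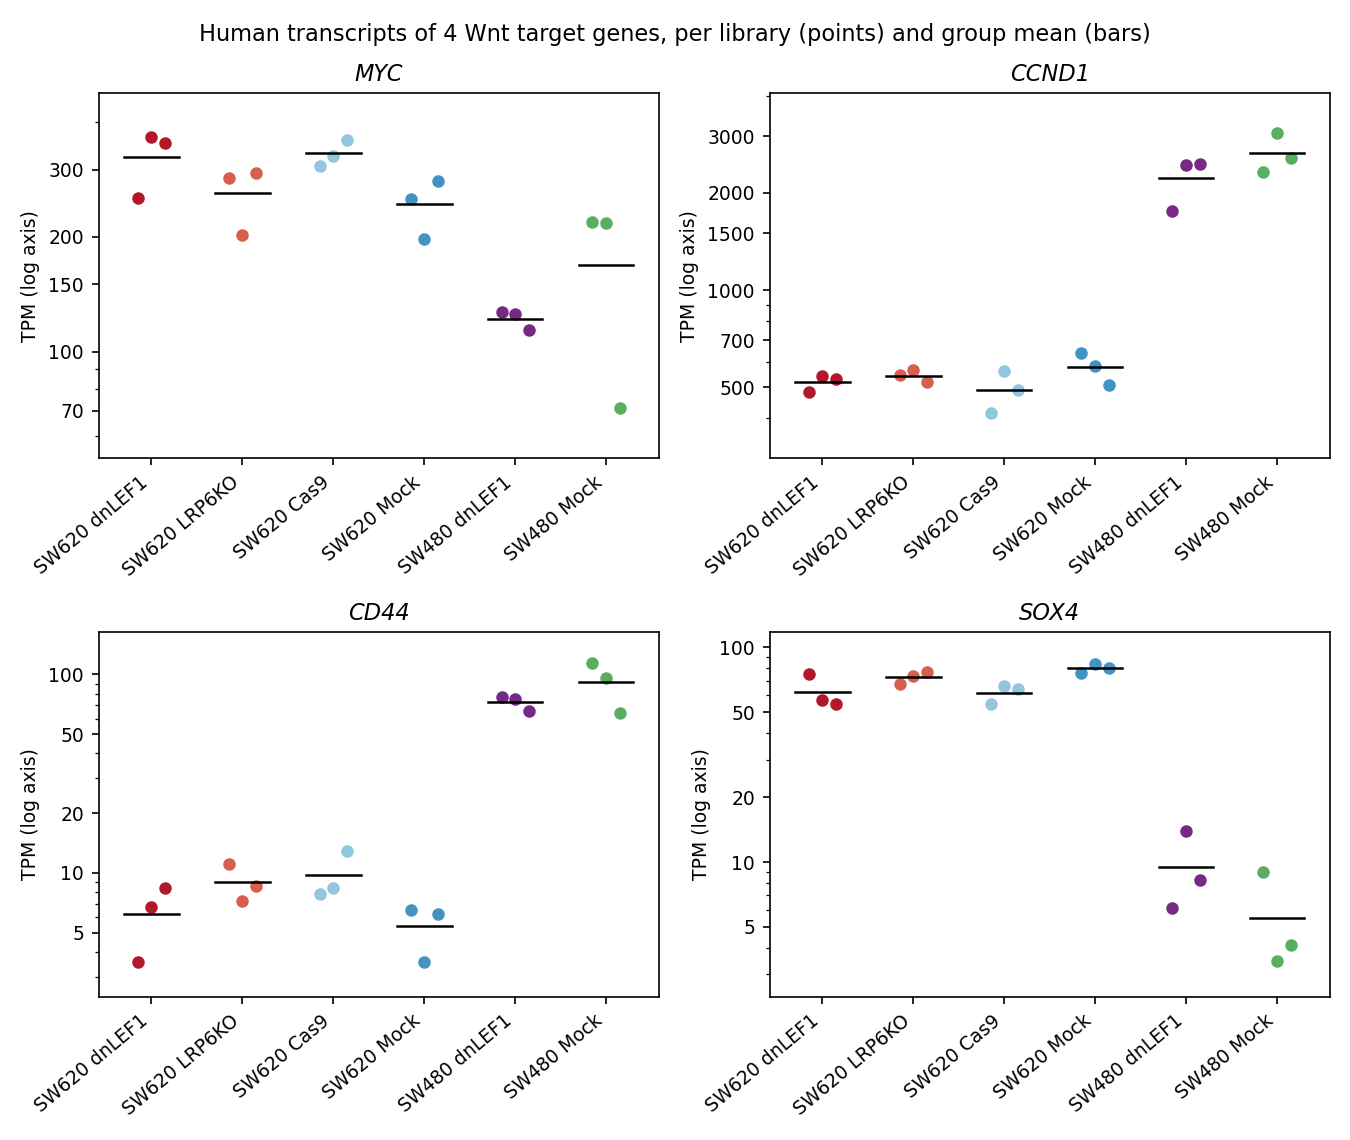
TPM (log axes of different range) of the 4 genes in the 18 xenograft libraries, by group. Each point is a library and each bar a group mean of 3. CCND1 and CD44 stand higher in both SW480 groups and SOX4 in all 4 SW620 groups without overlap between the lines, while MYC of the lines overlaps.

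MYC (ENSG00000136997.17, GRCh38 chromosome 8, 127735434 to 127741434, plus strand) was abundant in every group. It had 253, 365 and 352 TPM in SW620 dnLEF1 tumours, against 252, 197 and 280.4 TPM in SW620 Mock tumours. It had 286, 202 and 294 TPM in LRP6KO tumours, against 307, 326 and 360 TPM in Cas9 tumours. It had 127, 125 and 114 TPM in SW480 dnLEF1 tumours, against 218, 218 and 71.2 TPM in SW480 Mock tumours. The last value was the lowest of the 18 and lay in the library with the fewest genes above 0. By mean, the order was SW620 Cas9, SW620 dnLEF1, LRP6KO, SW620 Mock, SW480 Mock and SW480 dnLEF1, and every group overlapped its neighbour in that order.

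The MYC difference between dnLEF1 and Mock was -0.30 in SW480 (SE 0.315, 95% interval -0.97 to 0.37, adjusted p 0.729) and 0.41 in SW620 (SE 0.315, interval -0.26 to 1.07, adjusted p 0.796). In SW480 the outcome turned on 1 library: without Mock replicate 3, MYC was lower in dnLEF1 tumours by a difference of -0.83 with an adjusted p of 0.0393. The difference between the dnLEF1 changes of SW620 and SW480 was 0.71 (SE 0.445, adjusted p 0.557), and without that library 1.24 with an adjusted p of 0.036. LRP6KO and Cas9 did not overlap, with a difference of -0.36 (interval -1.03 to 0.31, adjusted p 1). Cas9 and SW620 Mock did not overlap either, with a difference of 0.46 (interval -0.21 to 1.12, adjusted p 1). These last comparisons share the Cas9 libraries.

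Between the lines, MYC averaged 243 ± 42.2 TPM in SW620 Mock and 169 ± 84.7 TPM in SW480 Mock (SD, n = 3 each). The groups overlapped, and the difference of 0.68 (SE 0.315, interval 0.01 to 1.34, adjusted p 0.142) was not called. Without SW480 Mock replicate 3 it was 0.14. In the dnLEF1 libraries MYC averaged 323 ± 61.5 TPM in SW620 and 122 ± 7.13 TPM in SW480 (SD, n = 3 each) with no overlap, a difference of 1.38 (SE 0.315, adjusted p 0.00301).

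Genes that MYC is known to induce lay mostly on the SW620 side. Of 25 such genes, 23 had a difference above 0 in SW620 Mock against SW480 Mock. Of the 25, 12 were called higher and 0 lower, where 10.9% and 12.9% of all genes were. The median difference was 0.59 beside -0.14 over all genes tested. NOP56, a box C/D snoRNP core protein, had 664, 638 and 549 TPM in SW620 Mock, against 302, 271 and 263 TPM in SW480 Mock, and its difference was 1.14 (SE 0.115, adjusted p 1.68e-06). NOLC1, a nucleolar chaperone of snoRNPs, had a difference of 0.97, and PPAN, a ribosome biogenesis factor, had 1.84. EIF4A1, the cap-complex helicase, had 0.78. Under the 12 alternatives, 8 to 17 of the 25 were called higher and the median ran between 0.50 and 0.68. A list of 20 proliferation genes was more mixed, with 12 above 0 and 8 below. Of the 20, 9 were called higher and 1 lower, with a median of 0.37. CDK1, the mitotic kinase, averaged 115 ± 13.8 TPM in SW620 Mock and 59.8 ± 8.84 TPM in SW480 Mock (SD, n = 3 each). Without SW480 Mock replicate 3, or without SW620 Mock replicate 3, 5 of the 20 were called higher, and median-ratio scaling gave 7 higher and 4 lower.

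Of 17 tested partners and regulators of MYC, 1 was called higher in SW620 Mock and 3 lower, a share near the 23.9% of all genes called, with a median of -0.07. The higher one was MYCBP2, an E3 ubiquitin ligase, at 0.92. MXD3, which competes for MAX, had a difference of -0.93, PIM1, a kinase that phosphorylates MYC, -1.49, and the paralogue MYCL -1.09 (adjusted p 0.0135, lost without SW480 Mock replicate 2 and without SW620 Mock replicate 2). MAX averaged 34.2 ± 1.30 TPM in SW620 Mock and 23.9 ± 6.90 TPM in SW480 Mock (SD, n = 3 each; adjusted p 0.0764). FBXW7, the ubiquitin ligase subunit that marks MYC for degradation, had a difference of 0.06 (adjusted p 0.903).

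In SW480, dnLEF1 gave 19 of the 25 MYC-induced genes a difference below 0, with a median of -0.25 beside 0.03 over all genes tested. Of the 25, 1 was called, where 2.23% of all genes were. That gene was NOP56, with 198, 177 and 228 TPM in dnLEF1 tumours, against 302, 271 and 263 TPM in Mock tumours, a difference of -0.47 (adjusted p 0.0417). The groups did not overlap, and the call was lost under 9 of 12 alternatives, among them without dnLEF1 replicate 2 and without each Mock library, with an adjusted p of 0.0364 to 0.568. All 20 proliferation genes were below 0, with a median of -0.32, and 1 was called. TYMS, thymidylate synthase, had 75.5, 92.3 and 82.6 TPM in dnLEF1 tumours, against 126, 128 and 118 TPM in Mock tumours, a difference of -0.57 (adjusted p 0.018) that was lost under 4 of 12 alternatives, among them without dnLEF1 replicate 3 and without Mock replicate 1. In SW620 the medians of the MYC-induced and proliferation genes under dnLEF1 were -0.03 and -0.05 beside -0.12 over all genes tested, and none was called.

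SOX4 (ENSG00000124766.6, chromosome 6, 21592768 to 21598619, plus strand) was the 1 member called higher in SW620 Mock than in SW480 Mock. It had 75.2, 56.8 and 54.6 TPM in SW620 dnLEF1 tumours, against 76.0, 83.8 and 79.8 TPM in SW620 Mock tumours. It had 67.7, 73.4 and 76.6 TPM in LRP6KO tumours, against 54.6, 65.9 and 64.3 TPM in Cas9 tumours. It had 6.11, 14.0 and 8.27 TPM in SW480 dnLEF1 tumours, against 8.97, 3.46 and 4.10 TPM in SW480 Mock tumours. The lowest of the 12 SW620 values, 54.6 TPM, stood above the highest of the 6 SW480 values, 14.0 TPM. By mean, the order was SW620 Mock, LRP6KO, SW620 dnLEF1, Cas9, SW480 dnLEF1 and SW480 Mock, and the gap between the lines came between Cas9 and SW480 dnLEF1.

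SOX4 was 14.5-fold higher in SW620 Mock than in SW480 Mock as a ratio of mean TPM, a difference of 3.73 (SE 0.274, interval 3.15 to 4.31, adjusted p 5.16e-08). In the dnLEF1 tumours it was 6.57-fold higher in SW620 (difference 2.65, SE 0.274, adjusted p 1.79e-06). The dnLEF1 change of SOX4 was 0.71 in SW480 (interval 0.13 to 1.29, adjusted p 0.219), where the groups overlapped. It was -0.37 in SW620 (interval -0.95 to 0.21, adjusted p 0.784), where all 3 dnLEF1 libraries lay below the lowest Mock library. The difference between these changes was -1.08 (SE 0.387, adjusted p 0.235), beside a median of -0.17 over all genes tested. Without SW480 Mock replicate 1, the SW480 difference was 1.06 with an adjusted p of 0.042. All 3 Cas9 libraries also lay below the SW620 Mock libraries (difference -0.37, adjusted p 1), and both of these SW620 differences use the same Mock libraries. LRP6KO lay above Cas9 without overlap, with a difference of 0.24 (interval -0.34 to 0.82, adjusted p 1).

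Other SOX genes of the list stood at lower TPM than SOX4 in SW620 Mock tumours. Of 8 tested, 3 were called higher in SW620 Mock than in SW480 Mock and 1 lower, where 10.9% and 12.9% of all genes were. SOX5 had a difference of 2.45 (9.36 ± 2.53 TPM in SW620 Mock and 0.99 ± 0.80 TPM in SW480 Mock), SOX2 of 1.90, SOX8 of 1.04 and SOX13 of -0.93. The SOX8 call was lost without SW480 Mock replicate 1 and without SW620 Mock replicate 3, and the SOX13 call without SW480 Mock replicate 2 and without SW620 Mock replicate 1. SOX9, a crypt transcription factor, averaged 10.9 TPM in SW620 Mock and 17.3 TPM in SW480 Mock and was not called (adjusted p 0.113). Of the SOXC genes that are the closest relatives of SOX4, SOX12 had a difference of -0.01 (adjusted p 0.999), and SOX11 did not exceed 0.20 TPM in any library and was not tested. None of the 8 was called in a comparison within a line.

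CCND1 (ENSG00000110092.3, chromosome 11, 69641087 to 69654474, plus strand) was among the most abundant transcripts of the SW480 tumours, where its mean ranked 37 of all identifiers in Mock and 55 in dnLEF1. It had 482, 542 and 531 TPM in SW620 dnLEF1 tumours, against 640.4, 583 and 509.6 TPM in SW620 Mock tumours. It had 544, 564 and 517 TPM in LRP6KO tumours, against 416, 560.3 and 489 TPM in Cas9 tumours. It had 1765, 2441 and 2465 TPM in SW480 dnLEF1 tumours, against 2327, 3068 and 2572 TPM in SW480 Mock tumours. Every pair of groups within a line overlapped, and the highest of the 12 SW620 values was well under the lowest of the 6 SW480 values. By mean, the order was SW480 Mock, SW480 dnLEF1, SW620 Mock, LRP6KO, SW620 dnLEF1 and Cas9.

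CCND1 was 4.60-fold lower in SW620 Mock than in SW480 Mock, a difference of -2.20 (SE 0.149, interval -2.51 to -1.88, adjusted p 1.93e-08). In the dnLEF1 tumours it was 4.29-fold lower in SW620 (difference -2.08, adjusted p 3.15e-08). The dnLEF1 difference was -0.26 in SW480 (interval -0.58 to 0.05, adjusted p 0.449) and -0.15 in SW620 (interval -0.47 to 0.16, adjusted p 0.836), and 0.11 between the lines (adjusted p 0.884). LRP6KO against Cas9 gave 0.16 (interval -0.16 to 0.47, adjusted p 1) and Cas9 against Mock -0.25 (interval -0.56 to 0.07, adjusted p 1). LTO1, which overlaps CCND1 on the other strand, averaged 26.5 to 32.0 TPM over the groups, far below CCND1.

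The D cyclins differed from each other between the lines. CCND2, cyclin D2, had 0.10, 0.09 and 0.15 TPM in SW620 Mock, against 20.9, 10.6 and 15.3 TPM in SW480 Mock, a difference of -3.85 (SE 0.387, adjusted p 1.68e-06). CCND3, cyclin D3, had 65.3, 66.2 and 77.3 TPM in SW620 Mock, against 78.0, 73.3 and 62.0 TPM in SW480 Mock, a difference of -0.03 (interval -0.37 to 0.32, adjusted p 0.932). Cyclins D1 and D2 were thus lower in SW620, and cyclin D3 overlapped.

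Of the kinases that D cyclins activate, CDK6 had 43.2, 38.8 and 40.7 TPM in SW620 Mock, against 9.65, 5.48 and 5.33 TPM in SW480 Mock, a difference of 2.46 (SE 0.275, adjusted p 5.43e-06). CDK4 had 362, 366 and 364 TPM in SW620 Mock, against 299, 260.3 and 224 TPM in SW480 Mock, a difference of 0.49 (adjusted p 0.0234) that was lost under 5 of 12 alternatives, each with 1 library left out (all but SW480 Mock replicate 1). CDK4 exceeded CDK6 in TPM in all 18 libraries. Among the inhibitors, CDKN1A (p21) had 5.63, 4.37 and 7.27 TPM in SW620 Mock, against 169, 148 and 108 TPM in SW480 Mock, a difference of -4.40 (SE 0.199, adjusted p 1.95e-10). CDKN2A, which encodes p16 and ARF, averaged 432 ± 28.9 TPM in SW620 Mock and 74.6 ± 6.64 TPM in SW480 Mock (SD, n = 3 each; difference 2.52, adjusted p 8.12e-09).

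Of 23 tested genes of the cyclin D and RB pathway, 5 were called higher in SW620 Mock and 4 lower, where 10.9% and 12.9% of all genes were. The median of the 23 was -0.03 beside -0.14 over all genes tested. In SW480, dnLEF1 called 1 of the 23, where 2.23% of all genes were called. CCND2 had 8.13, 6.29 and 1.5 TPM in dnLEF1 tumours, against 20.9, 10.6 and 15.3 TPM in Mock tumours, and its difference was -1.54 (SE 0.387, adjusted p 0.0483). The groups did not overlap, and the call was lost under 8 of 12 alternatives, with an adjusted p of up to 0.403, and without dnLEF1 replicate 3 the difference was -0.98. In SW620, dnLEF1 called none of the 23, where 0.165% of all genes were called. CCND2 stayed at or under 0.77 TPM in all 12 SW620 libraries.

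**Figure D2:**
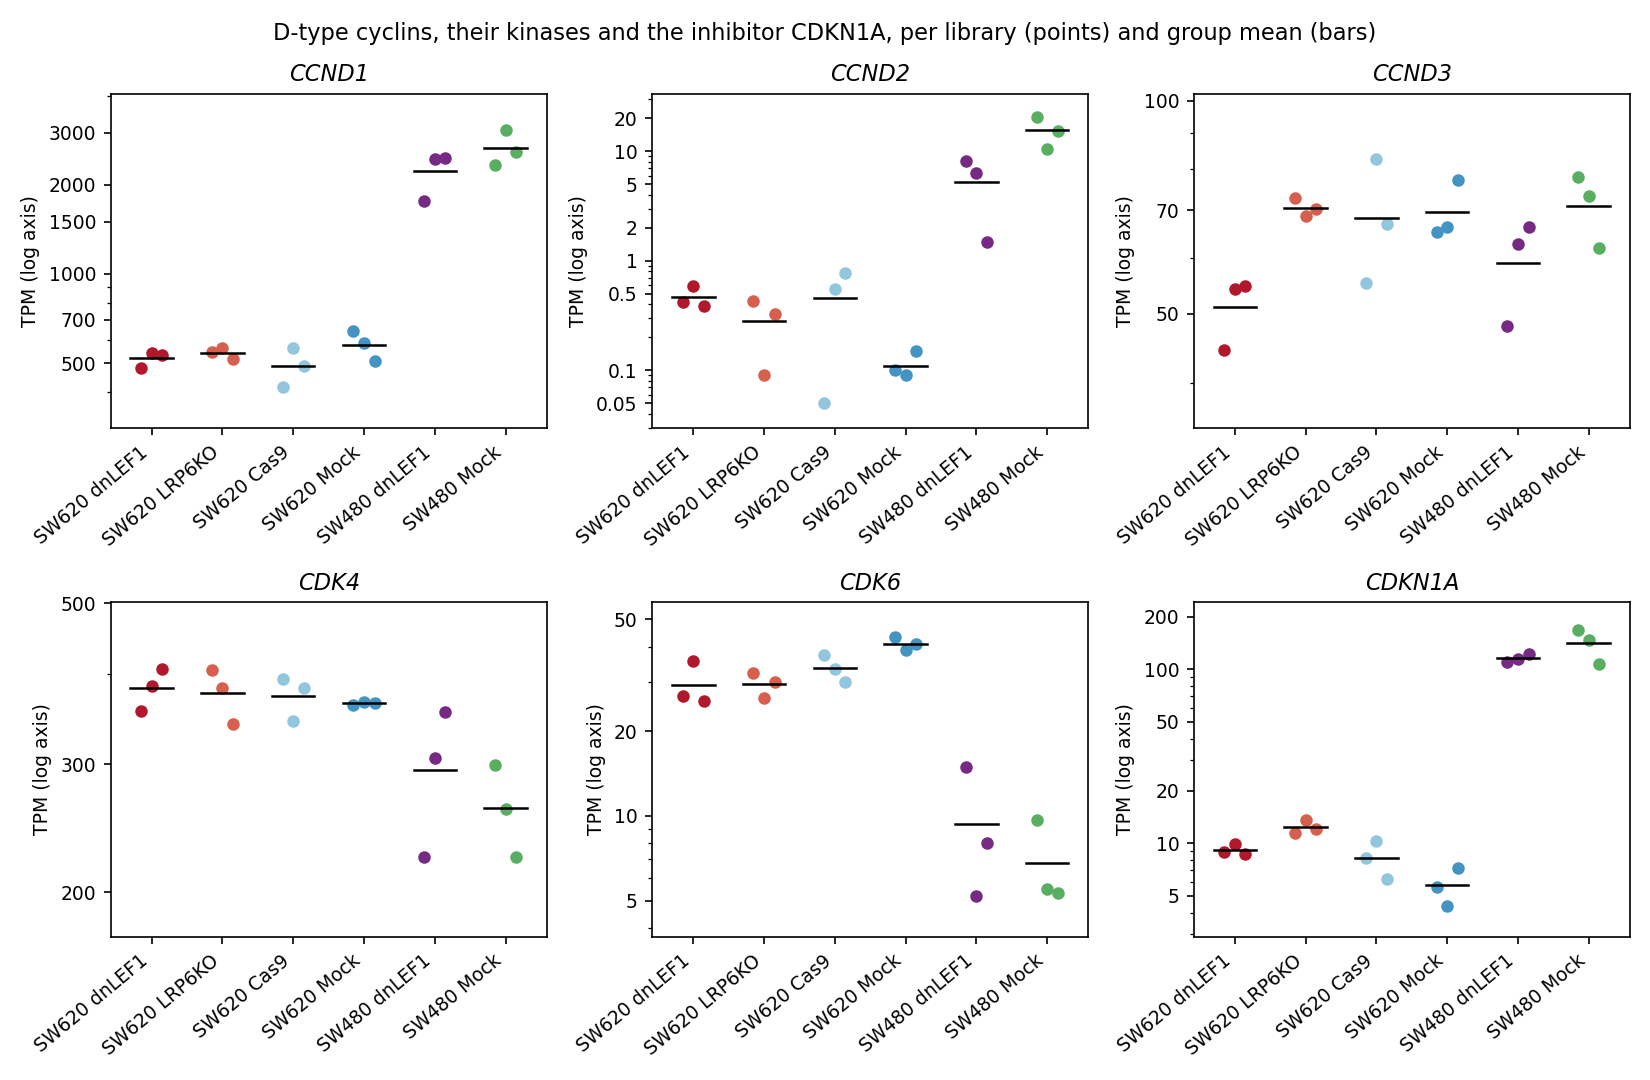
TPM (log axes of different range) of the D cyclins, CDK4, CDK6 and CDKN1A in the 18 libraries, by group. Each point is a library and each bar a group mean of 3. CCND1, CCND2 and CDKN1A stand higher in both SW480 groups, CDK6 in the 4 SW620 groups, and CCND3 overlaps between the lines.

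CD44 (ENSG00000026508.18, chromosome 11, 35138870 to 35232402, plus strand) was low in all SW620 groups and well expressed in both SW480 groups. It had 3.54, 6.72 and 8.41 TPM in SW620 dnLEF1 tumours, against 6.48, 3.56 and 6.22 TPM in SW620 Mock tumours. It had 11.2, 7.22 and 8.60 TPM in LRP6KO tumours, against 7.87, 8.36 and 13.0 TPM in Cas9 tumours. It had 76.9, 75.0 and 65.8 TPM in SW480 dnLEF1 tumours, against 115, 96.0 and 63.7 TPM in SW480 Mock tumours. The highest SW620 value, 13.0 TPM, was below the lowest SW480 value, 63.7 TPM. By mean, the order was SW480 Mock, SW480 dnLEF1, Cas9, LRP6KO, SW620 dnLEF1 and SW620 Mock.

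CD44 was 16.9-fold lower in SW620 Mock than in SW480 Mock, a difference of -3.84 (SE 0.291, interval -4.46 to -3.23, adjusted p 7.07e-08). In the dnLEF1 tumours it was 11.7-fold lower in SW620 (difference -3.41, adjusted p 2.29e-07). The leukocytes and stromal cells of the caecum belong to the mouse host, while CD44 and the marker sums are values of human genes. These sums are thus no direct count of host cells, and whether mouse reads entered them was not tested. In bulk tissue, fewer cells of a type and less RNA per cell cannot be told apart. The 6 leukocyte markers summed to 3.07 to 4.61 TPM in SW620 Mock and 7.57 to 8.42 TPM in SW480 Mock, and to 5.29 to 7.32 TPM in SW620 dnLEF1 and 10.6 to 17.2 TPM in SW480 dnLEF1. The 4 smooth muscle markers summed to 4.44 to 8.16 TPM in SW620 Mock and 15.6 to 28.8 TPM in SW480 Mock, and the 6 fibroblast markers to 12.9 to 16.0 TPM in SW620 Mock and 5.04 to 14.0 TPM in SW480 Mock. The 4 endothelial markers summed to 2.87 to 3.66 TPM in SW620 Mock and 0.72 to 2.35 TPM in SW480 Mock. Of the 2 tested, PECAM1 was called higher in SW620 Mock and VWF was below 0. Of 5 tested fibroblast markers, LUM and PDGFRB were called higher, and 3 were below 0. Of 3 tested leukocyte markers CD14 was called lower, and of 4 tested smooth muscle markers DES was. Of all genes, 10.9% were called higher and 12.9% lower. How these marker values bear on the CD44 difference was not tested. Of the leukocyte markers, CD3E was at 0 in all SW620 dnLEF1 and Cas9 libraries, and MS4A1 in all Cas9 libraries.

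Within SW620, CD44 was higher in Cas9 than in Mock tumours in all 3 libraries, with a difference of 0.75 (interval 0.13 to 1.36, adjusted p 0.899). The dnLEF1 difference was 0.14 in SW620 (interval -0.48 to 0.76, adjusted p 0.933) and -0.29 in SW480 (interval -0.91 to 0.32, adjusted p 0.714), and 0.43 between the lines (adjusted p 0.733). LRP6KO against Cas9 gave -0.09 (interval -0.71 to 0.52, adjusted p 1). The sign of the SW620 dnLEF1 and the LRP6KO values each turned when single libraries were left out. GENCODE lists 39 CD44 transcripts, of which 26 are protein-coding, and a gene-level value does not separate the standard form from the variants that arise by splicing. CD44-AS1, an antisense transcript, did not exceed 3.48 TPM in any library.

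The genes that act with CD44 moved in both directions between the lines. Of 18 tested ligand-synthesis genes, partners, sheddases and splicing regulators, 8 were called higher in SW620 Mock and 5 lower. Of all genes, 10.9% were called higher and 12.9% lower. The median of the 18 was 0.40 beside -0.14 over all genes tested. CD74, the invariant chain and MIF receptor that signals through CD44, had 2.68, 1.26 and 1.58 TPM in SW620 Mock, against 473, 243 and 413 TPM in SW480 Mock, a difference of -7.03 (SE 0.346, adjusted p 4.74e-10). MET, the hepatocyte growth factor receptor for which CD44 is a co-receptor, had 94.5, 94.98 and 76.6 TPM in SW620 Mock, against 8.85, 5.93 and 4.74 TPM in SW480 Mock, a difference of 3.61 (adjusted p 2.5e-08). CD74 thus stood with CD44 on the SW480 side and MET on the SW620 side. HAS3, a hyaluronan synthase, had a difference of 1.80, and PROM1, which encodes the surface protein CD133, had 3.49.

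EZR, encoding ezrin, which links CD44 to actin, had a difference of 0.70 (342 ± 11.2 TPM in SW620 Mock and 212 ± 30.5 TPM in SW480 Mock, SD, n = 3 each). ESRP1 and ESRP2, epithelial splicing factors that favour CD44 variant exons, went opposite ways. ESRP1 had 5.13, 4.44 and 6.12 TPM in SW620 Mock, against 12.6, 13.2 and 10.5 TPM in SW480 Mock, a difference of -1.07 (adjusted p 0.00206). ESRP2 had 16.5, 14.2 and 16.7 TPM in SW620 Mock, against 9.81, 13.3 and 3.79 TPM in SW480 Mock, a difference of 0.89 (adjusted p 0.0378) that was lost under 6 of 12 alternatives, and without SW480 Mock replicate 3 it was 0.43. No member of this list was called for dnLEF1, LRP6KO or Cas9.

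**Figure D3:**
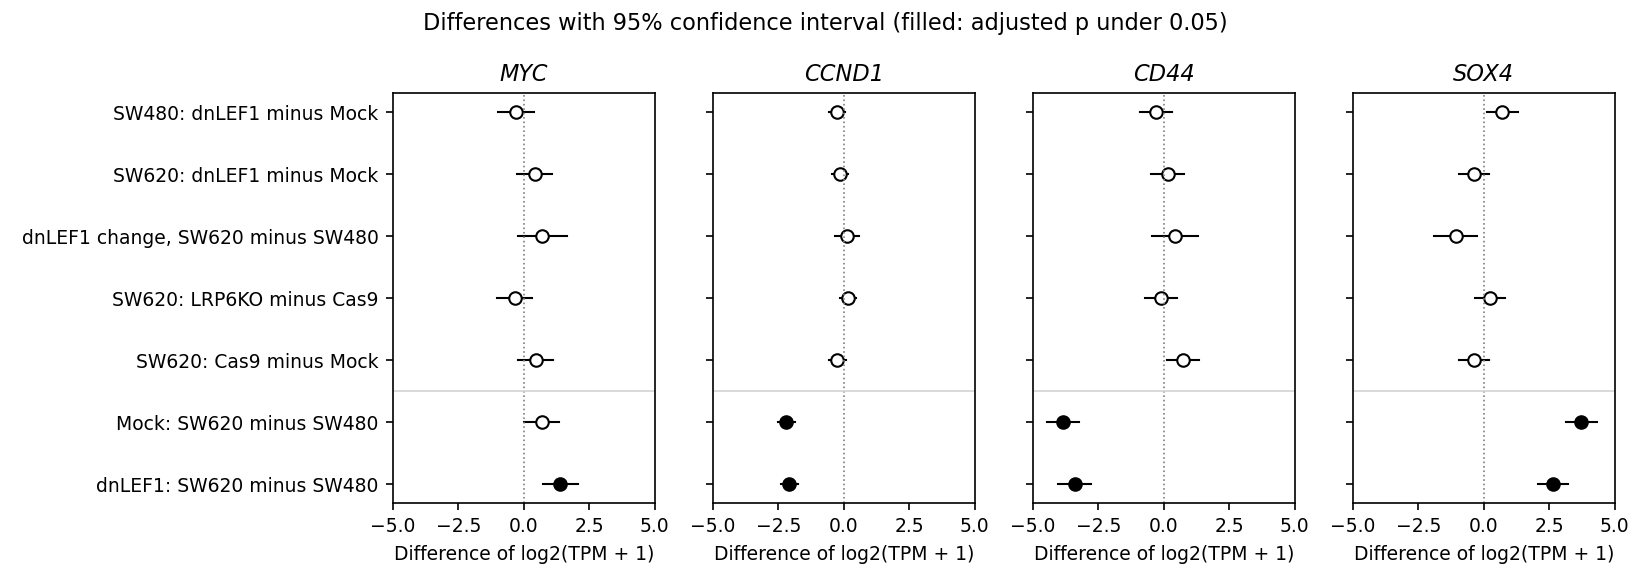
Difference of log2(TPM + 1) with its 95% confidence interval for the 4 genes (panels) in 5 comparisons above the line, within a cell line or between dnLEF1 changes, and 2 between the lines below it. Filled points have an adjusted p under 0.05; they lie only in the comparisons between the lines, where CCND1 and CD44 are below 0 and SOX4 above.

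The other Wnt targets were read beside the 4 genes. LEF1 had 47.2 to 99.4 TPM in SW480 dnLEF1 tumours, against 5.09 to 14.8 TPM in SW480 Mock tumours, and 18.3 to 24.0 TPM in SW620 dnLEF1 tumours, against 0.30 to 0.80 TPM in SW620 Mock tumours. These values pool endogenous LEF1 with the lentiviral copy. AXIN2, the feedback inhibitor, had 32.5, 25.7 and 29.8 TPM in SW480 dnLEF1 tumours, against 48.2, 61.5 and 62.0 TPM in SW480 Mock tumours, a difference of -0.94 (adjusted p 0.0147) that was lost under 3 of 12 alternatives, among them without dnLEF1 replicate 2. Of 32 other Wnt targets, dnLEF1 in SW480 called 2 higher (LEF1, and ETS2 at 0.93, a call lost without dnLEF1 replicate 3 and without Mock replicate 1) and 3 lower (AXIN2, ID2 at -1.45 and DKK1 at -1.10). Of all genes, 2.23% were called there. In SW620, dnLEF1 called LEF1 higher and no other of the 32, where 0.165% of all genes were called. The difference between the dnLEF1 changes of SW620 and SW480 was called for ID2 (1.60) and DKK1 (2.02) of the 32. Of all genes, 0.718% were called there. For AXIN2 that difference was 0.81 and was not called (adjusted p 0.184). Between SW620 Mock and SW480 Mock, 12 of the 32 were called higher and 11 lower, where 10.9% and 12.9% of all genes were. The median of the 32 was -0.02 beside -0.14 over all genes tested. DKK4, a secreted Wnt antagonist, had a difference of -8.62, APCDD1, a membrane Wnt inhibitor, of -4.99, the metalloproteinase gene MMP7 of 3.58 and the tight junction gene CLDN1 of 2.70.

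**Figure D4:**
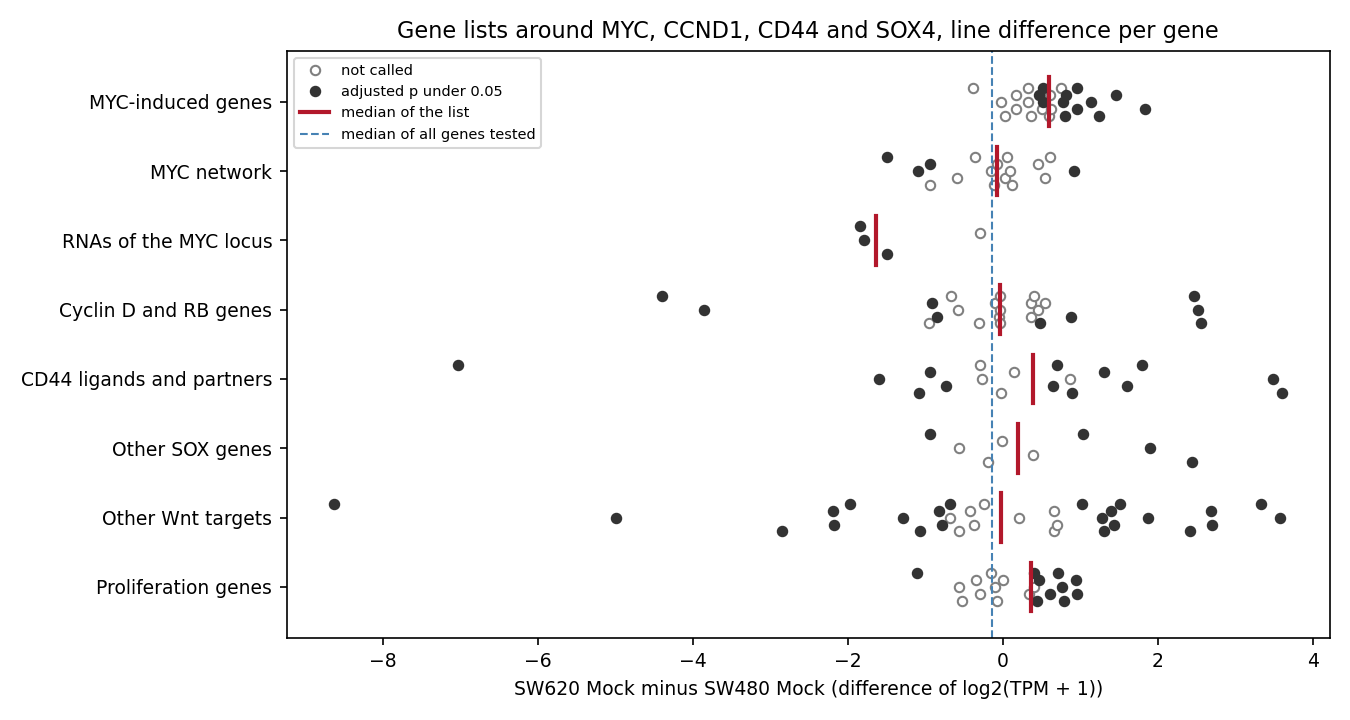
Difference of log2(TPM + 1), SW620 Mock minus SW480 Mock, for each tested gene of 8 lists (rows). Filled points have an adjusted p under 0.05, red bars are list medians and the dashed line is the median of all genes tested, -0.14. The MYC-induced genes lie mostly above it (median 0.59) and the RNAs of the MYC locus below it (median -1.64).

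Transcripts from the MYC locus did not run with MYC between the lines. PVT1, the long noncoding RNA next to MYC, had 25.4, 19.3 and 39.5 TPM in SW620 Mock, against 70.3, 115 and 57.2 TPM in SW480 Mock, a difference of -1.49 (SE 0.349, adjusted p 0.00468). In the dnLEF1 tumours its difference was -2.35 (adjusted p 7.78e-05), and the groups of the lines did not overlap in either comparison. Of 4 tested RNAs listed for the locus, 3 were called lower in SW620 Mock, where 12.9% of all genes were, and 0 higher. The others called were CASC19 (-1.78) and PCAT1 (-1.83). The calls of CASC19 and PCAT1 were lost without SW480 Mock replicate 2, and that of PCAT1 also without SW620 Mock replicate 3, while PVT1 was called under all 12 alternatives. Within 1 Mb of MYC, 13 other genes were tested, of which 7 were called lower and 0 higher, beside the same 12.9%. The 7 include PVT1, CASC19 and PCAT1 again, and RF02164, which starts at the same 59.1 kb from MYC as PVT1. The median of -1.49 is the value of PVT1. CASC8, an antisense RNA that starts 253 kb before MYC, averaged 0.10 TPM in SW620 Mock and 17.3 TPM in SW480 Mock (difference -4.06, adjusted p 2.43e-09).

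The neighbours of the other genes were set out in the same way, in a summary added after the values were seen. Within 1 Mb of CCND1, 3 of 35 tested genes were called higher in SW620 Mock, near the 10.9% of all genes called higher. A further 8 were called lower, where 12.9% of all genes were. MYEOV, upstream of CCND1, had a difference of -2.55, FGF19, a growth factor gene downstream, -1.06, and ANO1, a chloride channel gene further downstream, -2.04. LTO1 (-0.05), which overlaps CCND1, and FADD (-0.04), which starts beyond ANO1, were not called. Of the genes called higher, GAL, which encodes galanin, had a difference of 3.05. Within 1 Mb of CD44, 2 of 15 were called higher, near the 10.9% of all genes called higher, and 0 lower, with EHF, an epithelial ETS factor, at 3.51 and APIP at 0.90. Within 1 Mb of SOX4, 3 of 6 were called higher, where 10.9% of all genes were, and 0 lower. Those 3 were CDKAL1 at 2.44, the noncoding CASC15 at 2.15 and AL359694.2 at 1.18.

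**Figure D5:**
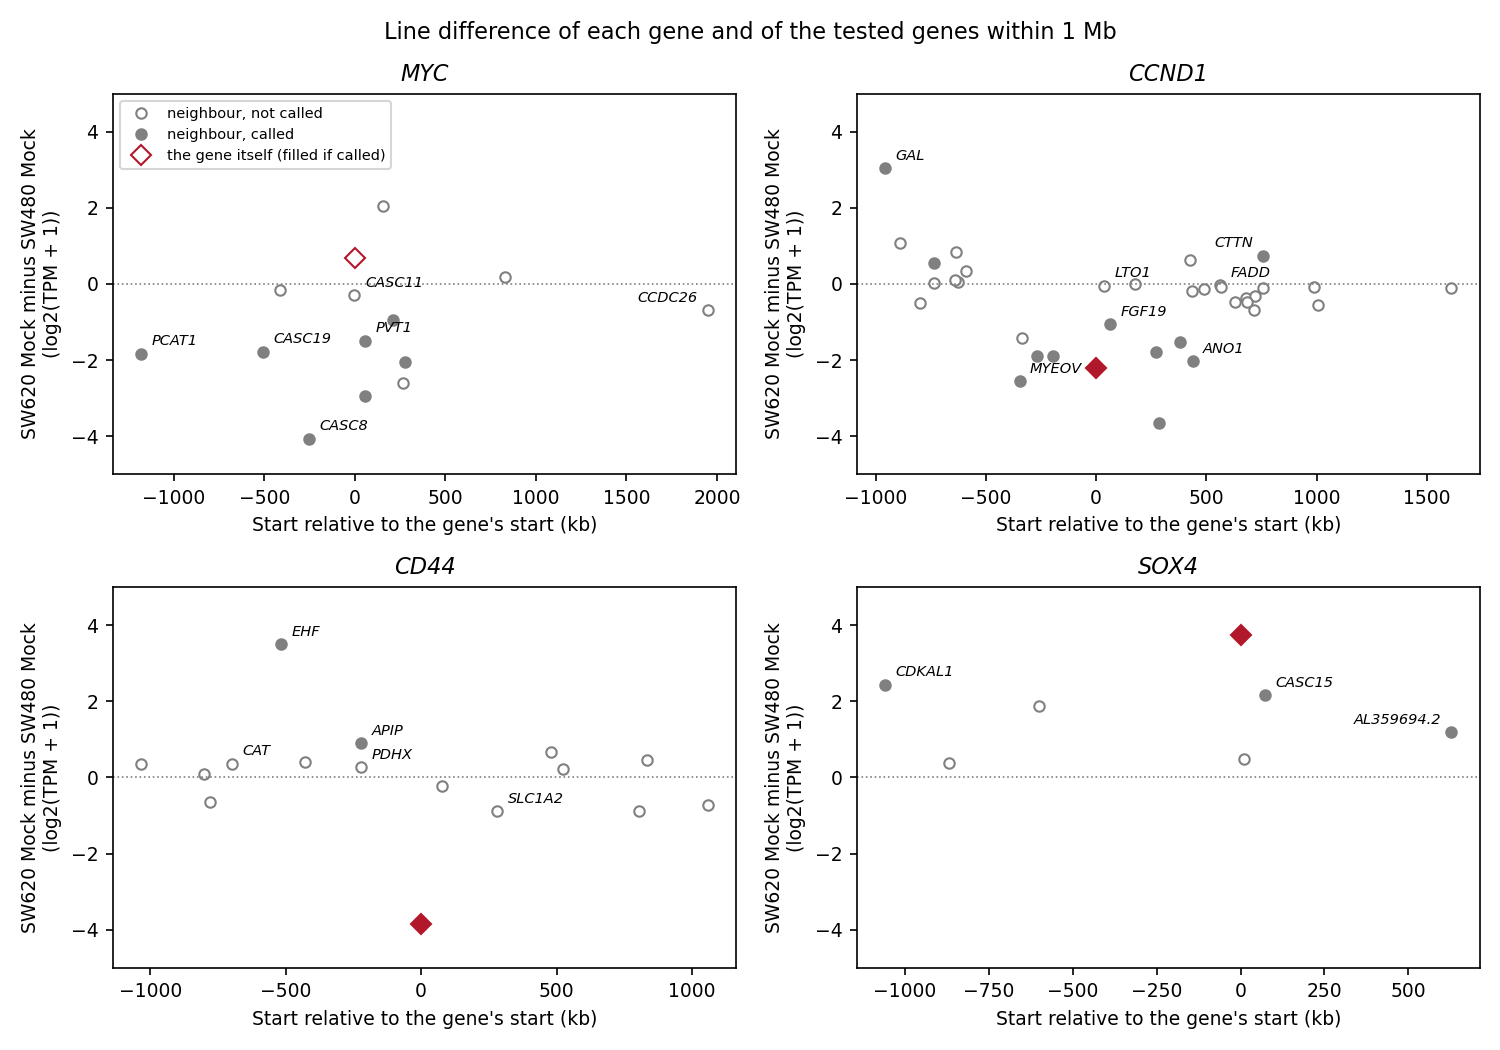
Difference of log2(TPM + 1), SW620 Mock minus SW480 Mock, against the distance in kb from the start of the gene, for each of the 4 genes (diamonds) and the tested genes within 1 Mb (circles). A long neighbour can start beyond 1 Mb. Filled symbols have an adjusted p under 0.05; around MYC the called neighbours are all below 0, and around SOX4 all above.

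The genes most like each member over the 18 libraries were ranked by Pearson r of log2(TPM + 1) among 10541 genes with a mean of at least 5 TPM. The values are a description, since the libraries fall into 2 cell lines. The nearest were AP3M1 (0.965), CCDC86 (0.965) and SLC39A14 (0.964) for MYC. For CCND1 they included MCOLN3 (0.989) and IFITM1 (0.988). They were, for CD44, VDR (0.982), PPIC (0.981) and ANXA6 (0.978), and for SOX4, TMSB4X (0.989), S100P (0.989) and CKLF (0.988). After the mean of each line was taken off, the nearest were CCNA2 (0.942), RBM14 (0.934) and CCDC86 (0.927) for MYC, EXOSC9 (0.846) for CCND1, TRIM27 (0.889) for CD44 and STMP1 (0.888) for SOX4. CCDC86 was the 1 gene that stood among the nearest 3 both ways.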

How the data were processed

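Bulk RNA of frozen caecum was sequenced with Smart-seq2, per the labels' protocols. The deposited human table holds TPM per gene for 18 xenograft libraries in 6 groups of 3, and the authors' TPM were made with Trimmomatic 0.35, Bowtie 1.2 and RSEM 1.2.31 on hg38 (mm10 for mouse), per the submitters' processing notes. TPM is relative within human transcripts, and the depth is unknown. The mouse table and the 3 PBS samples were not used here. Of 58381 identifiers, 45 second pseudoautosomal copies, all 0, were dropped, and 58216 of the rest were named from GENCODE 29. CCAT1, a noncoding gene listed for its role beside MYC, was not found by name.

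The 22981 genes that reached 1 TPM in 3 or more libraries entered limma 3.58.1 (R 4.3.3) as log2(TPM + 1), with a variance trend and all 6 groups in 1 fit. Benjamini-Hochberg adjustment ran over all of them within each of 6 planned comparisons and 1 added one, and 0.05 was the threshold. Intervals cover 95%. The fit was tested on simulated data. Python 3.11.15, numpy 2.4.6, pandas 2.3.3 and matplotlib 3.10.9 were used around it.

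Besides the 4 genes, the text names up to 4 called genes per list and comparison by smallest p, genes with a role beside a member, and the 3 genes most like each member, of which 1 is not reported here. Neighbours outside this rule, and DKK1, were named after their values were seen. The members, lists and tests were chosen with earlier results of these data known. Alternatives were a pseudocount of 0.1, no filter, median-ratio scaling over 7412 genes of at least 5 TPM in every library, fits restricted to the groups compared, array weights, a block for replicate number, and leaving out single libraries.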

Additional observations from a re-analysis of the deposited data

How the results depend on the processing

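Of 364 alternative values for the 4 genes, 355 kept direction and call. In the comparison of SW620 with SW480 Mock tumours, CCND1 ran between -2.29 and -2.09, CD44 between -4.08 and -3.61 and SOX4 between 3.50 and 4.08 over 12 alternatives, all called. MYC was called in none of these, and was called with the dnLEF1 libraries in place of Mock (1.38). Leaving out single libraries gave dnLEF1 differences in SW480 of -0.83 to -0.033 for MYC (called without Mock replicate 3) and 0.41 to 1.06 for SOX4 (called without Mock replicate 1). It gave -0.089 to 0.44 for CD44 under dnLEF1 in SW620, with -0.082 without dnLEF1 replicate 3 and -0.089 without Mock replicate 2. It gave -0.24 to 0.11 for CD44 in LRP6KO against Cas9, with 0.11 without Cas9 replicate 3 and 0.04 without LRP6KO replicate 2. Between the dnLEF1 changes of the lines it gave 0.44 to 1.24 for MYC (called without SW480 Mock replicate 3) and -0.047 to 0.20 for CCND1, with -0.047 without SW480 dnLEF1 replicate 1. The cause was not tested. Counts of called genes were less stable. For dnLEF1 in SW480, 512 genes became 333 with a pseudocount of 0.1, 29 with only those groups in the fit, 261 with array weights and 258 to 1214 with 1 library left out (1214 without dnLEF1 replicate 1). For dnLEF1 in SW620, 38 became 21, 120, 394 and 17 to 26. For the difference of changes, 165 became 43 with only those groups in the fit, 358 with array weights and 66 to 801 with 1 library left out (801 without SW480 dnLEF1 replicate 1). LRP6KO against Cas9 gave 10 and 1, and Cas9 against Mock 8 and 101 under these fits, 1 with no filter and 0 to 1 with 1 library left out (1 without SW620 Mock replicate 1). Median-ratio scaling moved the median over all genes of the difference of changes from -0.17 to -0.02 and the share called higher there from 24.8% to 42.7%, and in SW620 dnLEF1 from 34.2% to 47.4%. Replicate numbers did not pair the libraries: of 45 same-numbered pairs between groups, 2 had a correlation of deviations over 0.1 (range -0.18 to 0.216), and 3 of 18 libraries correlated best with their own number. With the replicate number as a block, 417 genes were called for dnLEF1 in SW480, 32 in SW620, 0 for LRP6KO, 0 for Cas9, 5196 for SW620 against SW480 Mock, 144 for the difference of changes and 6977 for SW620 against SW480 dnLEF1, and no call of the 4 genes changed.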
